A study of Mus musculus with 28 samples.

Results

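The comparison described here set vehicle-treated cultures collected at day 6 against vehicle-treated cultures collected at day 3, in DC2 cells, an immortalized mouse line derived from epithelium of the distal caput epididymis. It was chosen by the libraries' group labels and held 8 of the series' 28 RNA-seq libraries, 4 per day, each numbered replicate 3, 4, 5 or 6. The day 6 libraries came from confluent cultures that had received 0.1% ethanol at day 0, had that medium replaced at day 3 and were collected at day 6, when the medium was due to be replaced again. The day 3 libraries came from cultures that had received the same ethanol at day 0 and were collected at day 3, before any further replacement. Groups from the same series used beside them were cultures given 500 ng/ml corticosterone in 0.1% ethanol from day 0 and collected at days 6 and 3, and vehicle cultures of day 0, taken before any treatment, and of day 9, with 4 libraries in each. By the labels the corticosterone cultures of day 6 had 3 days of recovery after treatment, and those of day 3 had none. All groups shared the cell line, a collagen coat and a serum-containing medium.

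Both groups had spent 3 days in their last medium when collected. The labels call the days after day 3 recovery, but whether the medium given at day 3 held ethanol was not given in the sources used here, so time in culture, the medium replacement and the end of ethanol exposure cannot be told apart. No label states that replicates came from different cultures, so the p-values measure only the spread between these libraries. Values are the authors' log2 CPM, the base 2 logarithm of reads scaled to library size, which are not per length and so are compared only within a gene. Per-library values are given in the order of replicates 3, 4, 5 and 6. Differences are log2 fold changes, day 6 minus day 3, with the standard error of the limma fit (n = 4 libraries per day), and a gene is called higher or lower at a Benjamini-Hochberg adjusted p under 0.05 over the 13128 genes tested.

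Cells sense oxygen through prolyl hydroxylases (the Egln enzymes), which mark the alpha subunits of hypoxia-inducible factors for destruction by the von Hippel-Lindau protein. When hydroxylation slows, the alpha subunit pairs with Arnt and binds short DNA sites with the core ACGTG or GCGTG. Its known targets include enzymes of glycolysis, brakes on mitochondrial pyruvate use, mitophagy receptors, angiogenic factors and some of the Egln genes themselves, which gives the pathway a feedback loop.

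At day 6 the genes of this pathway and of glycolysis stood out among those higher than at day 3. Over all genes, 1685 were higher (12.8% of those tested) and 1464 lower (11.2%), with a median log2 fold change of -0.001. Of these, 140 were higher by at least 2-fold (1.07%) and 21 lower by at least 2-fold (0.16%). Without regard to the test, all 4 day 6 libraries lay above all 4 day 3 libraries for 2063 genes (15.7%) and below them for 2033 genes (15.5%). Library weights gave 2384 higher and 2360 lower genes, and quantile normalization turned the balance, with 1553 higher and 1727 lower.

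**Figure D1:**
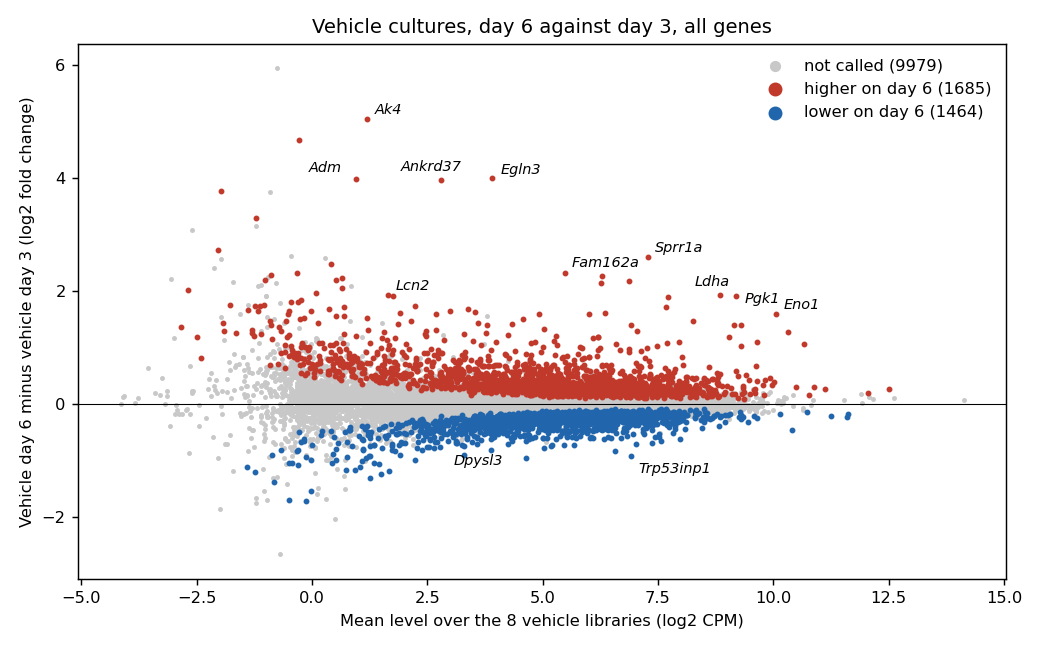
Each point is 1 of 13128 genes, with its mean level over the 8 vehicle libraries (log2 CPM) on the x axis and the vehicle day 6 minus vehicle day 3 log2 fold change on the y axis; red points are higher and blue points lower at an adjusted p under 0.05 in limma. Red points reach further from 0 than blue ones: Ak4, Egln3, Adm and Ankrd37 stand at about 4 or above, while Trp53inp1, at -0.93, is the lowest of the called genes with a level above 5.

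The oxygen sensor Egln3 showed the smallest p of any hypoxia gene. Its levels were 5.67, 5.67, 6.12 and 6.12 log2 CPM at day 6, against 1.87, 1.87, 1.67 and 2.15 at day 3. The 4 day 6 libraries were far above the 4 day 3 libraries, a 16.1-fold difference (4.01 ± 0.15, adjusted p = 3.19e-16). Adm, which encodes the vasodilator peptide adrenomedullin, stood at 2.57, 2.59, 3.23 and 3.36 log2 CPM at day 6, against -0.42, -1.47, -1.24 and -1.02 at day 3. Ankrd37, an ankyrin repeat gene known as a target of the hypoxia-inducible factors, stood at 4.29, 4.54, 5.15 and 5.09 log2 CPM at day 6, against 0.31, 1.12, 0.88 and 0.90 at day 3. The groups did not overlap for either gene, and the differences were 3.98 ± 0.35 for Adm (adjusted p = 3.74e-09) and 3.96 ± 0.24 for Ankrd37 (adjusted p = 2.35e-12). Adm was low at day 3, so the size of its difference depends on the prior count. The Adm difference was not taken on a log2(CPM + 5) scale. Fam162a, a mitochondrial gene induced by hypoxia, stood at 6.36, 6.5, 6.89 and 6.81 log2 CPM at day 6, against 4.07, 4.42, 4.37 and 4.42 at day 3, again without overlap (2.32 ± 0.15, adjusted p = 6.49e-12).

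These 4 were the called members of the hypoxia list with the largest rises, and the DNA before their start sites is shown because it holds the letters that hypoxia-inducible factors are known to bind. The windows come from RefSeq on GRCm38.p6 and run from 250 bases before to 50 bases after an annotated transcript start. They are printed 5′ to 3′ on the gene's own strand. ACGTG and GCGTG, searched on both strands, are in capitals (CACGT or CACGC where the match is on the other strand). The Ankrd37 window is set by a start inside the gene, whose 5′ end is annotated at 46000414. Egln3 is at chr12:54203825-54204124 on the minus strand with 1 match, Adm at chr7:110627407-110627706 on the plus strand with 2, Ankrd37 at chr8:45999801-46000100 on the minus strand with 4, of which 2 overlap in CACGCGTG, and Fam162a at chr16:36071512-36071811 on the minus strand with 6.
Egln3: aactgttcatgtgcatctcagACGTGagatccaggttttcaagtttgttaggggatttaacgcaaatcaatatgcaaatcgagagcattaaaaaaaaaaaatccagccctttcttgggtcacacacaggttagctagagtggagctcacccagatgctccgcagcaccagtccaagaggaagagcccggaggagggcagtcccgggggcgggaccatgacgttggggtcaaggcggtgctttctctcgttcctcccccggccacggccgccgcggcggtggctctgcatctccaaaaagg
Adm: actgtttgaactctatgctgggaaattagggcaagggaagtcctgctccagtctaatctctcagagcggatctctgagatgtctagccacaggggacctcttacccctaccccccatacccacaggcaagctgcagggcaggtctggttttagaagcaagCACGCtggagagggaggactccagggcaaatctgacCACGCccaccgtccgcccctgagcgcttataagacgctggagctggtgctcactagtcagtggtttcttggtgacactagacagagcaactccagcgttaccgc
Ankrd37: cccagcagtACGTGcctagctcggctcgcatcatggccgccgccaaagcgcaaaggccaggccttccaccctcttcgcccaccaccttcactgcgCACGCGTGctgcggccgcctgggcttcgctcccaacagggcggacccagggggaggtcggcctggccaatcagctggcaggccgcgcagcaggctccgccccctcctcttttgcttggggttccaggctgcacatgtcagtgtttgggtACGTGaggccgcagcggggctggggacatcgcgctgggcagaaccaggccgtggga
Fam162a: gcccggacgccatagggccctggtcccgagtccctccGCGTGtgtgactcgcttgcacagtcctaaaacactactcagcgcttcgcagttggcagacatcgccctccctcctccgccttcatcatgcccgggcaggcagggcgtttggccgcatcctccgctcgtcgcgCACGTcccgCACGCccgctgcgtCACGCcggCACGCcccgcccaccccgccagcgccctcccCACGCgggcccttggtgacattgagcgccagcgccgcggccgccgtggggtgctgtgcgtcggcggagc

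The motif is short and common, so its presence is a description only. It was in 81.2% of the 32 windows of 25 hypoxia list members that could be matched, in 77.4% of the 31 windows of 20 glycolysis genes, in 61.1% of the 12887 windows of 10074 genes tested, and in 43.8% of all 32851 windows searched. The search left out the windows of a chromosome and counted identical windows of the same gene only once. Windows of genes read in these libraries held it more often than windows overall. A match is not a bound site, and binding was not measured.

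Egln1 and Vhl were the other parts of the sensing machinery called higher. Egln1, the prolyl hydroxylase that sets basal factor levels, was 7.41, 7.46, 7.78 and 7.8 log2 CPM at day 6, against 6.23, 6.2, 6.21 and 6.21 at day 3. The day 6 libraries were all higher (1.4 ± 0.08, adjusted p = 1.49e-12), and replicates 5 and 6 were above replicates 3 and 4 at day 6 but not at day 3. Vhl, which encodes the substrate-recognition subunit of the ubiquitin ligase, was called higher at 0.32 ± 0.10 (adjusted p = 0.0239) with overlapping groups. Its call ended without day 6 replicate 4 (0.30), day 6 replicate 6 (0.27), day 3 replicate 5 (0.24) or day 3 replicate 6 (0.29), with adjusted p up to 0.112.

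The genes of the factors themselves and their other regulators were not called in the fit used throughout, though some were under other settings. Hif1a, the main alpha subunit, had 6.96, 6.96, 6.85 and 6.93 log2 CPM at day 6, against 7.04, 6.97, 6.89 and 7.02 at day 3, and its difference was -0.06 ± 0.06 (adjusted p = 0.511). Its partner Arnt was at -0.09 ± 0.05 (adjusted p = 0.221), Arnt2 at -0.20 ± 0.10 (called lower with only the groups compared, adjusted p = 0.00384, with the replicate block in those groups, adjusted p = 0.0115, and with library weights, adjusted p = 0.0421), the asparagine hydroxylase gene Hif1an at -0.09 ± 0.04 (called lower with library weights, adjusted p = 0.0489) and the third prolyl hydroxylase gene, Egln2, at -0.06 ± 0.09. Epas1 and Hif3a, which encode the other alpha subunits, were low, below -1 log2 CPM in all 8 libraries, and were at -0.97 ± 0.39 (adjusted p = 0.0744) and 0.54 ± 0.55 (adjusted p = 0.512). Epas1 was called lower without day 6 replicate 6 (-1.18) and with quantile normalization (-1.30, adjusted p = 0.00775), its groups did not overlap, and on a log2(CPM + 5) scale it was at -0.04. In all, 3 of the 10 sensors and factors were higher and none was lower in limma (3 and 2 at an unadjusted p under 0.05), beside 12.8% and 11.2% of all genes. The activity of these factors is largely set on the protein, which was not measured.

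Of the 30 genes of the hypoxia response list, which includes Egln1 and Egln3, 26 were higher, 1 was lower and 3 were not called, with a median of 0.87 beside -0.001 over all genes. The summed CPM of the list was 4744 to 5531 in the day 6 libraries and 2672 to 2801 in the day 3 libraries. Pdk1, the kinase that restrains entry of pyruvate into mitochondria, was 7.23, 7.4, 7.43 and 7.54 log2 CPM at day 6, against 5.03, 5.06, 5.04 and 5.46 at day 3 (2.26 ± 0.12, adjusted p = 1.74e-13). Bnip3, a receptor that marks mitochondria for autophagy, was 7.71, 7.89, 8.11 and 8.14 log2 CPM at day 6, against 5.64, 5.79, 5.8 and 5.88 at day 3 (2.18 ± 0.13, adjusted p = 1.35e-12). All 4 day 6 libraries exceeded all 4 day 3 libraries for both. P4ha1, a collagen prolyl hydroxylase subunit, was 8.35, 8.47, 8.63 and 8.64 log2 CPM at day 6, against 6.74, 6.82, 6.75 and 6.93 at day 3 (1.71 ± 0.08, adjusted p = 7.27e-15).

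Other members were higher by less. Ero1a, an endoplasmic reticulum oxidase, rose by 1.62 ± 0.14, Higd1a, a mitochondrial survival factor, by 1.59 ± 0.11, and the cytokine gene Mif by 1.47 ± 0.11. Vegfa, the angiogenic growth factor, rose by 0.99 ± 0.06 and the mitophagy receptor gene Bnip3l by 0.98 ± 0.10. Carbonic anhydrase 9, Car9, a widely used hypoxia marker, rose by 0.74 ± 0.26 (adjusted p = 0.0413) with overlapping groups. Car12, Pfkfb3 and Pfkfb4 were not called, at 0.09, 0.06 and -0.12. Nrn1, which encodes the surface protein neuritin, was the 1 member that fell, at 2.01, 1.93, 2.36 and 2.11 log2 CPM at day 6, against 2.98, 2.88, 2.53 and 3.11 at day 3 (-0.77 ± 0.11, adjusted p = 5.56e-06).

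**Figure D2:**
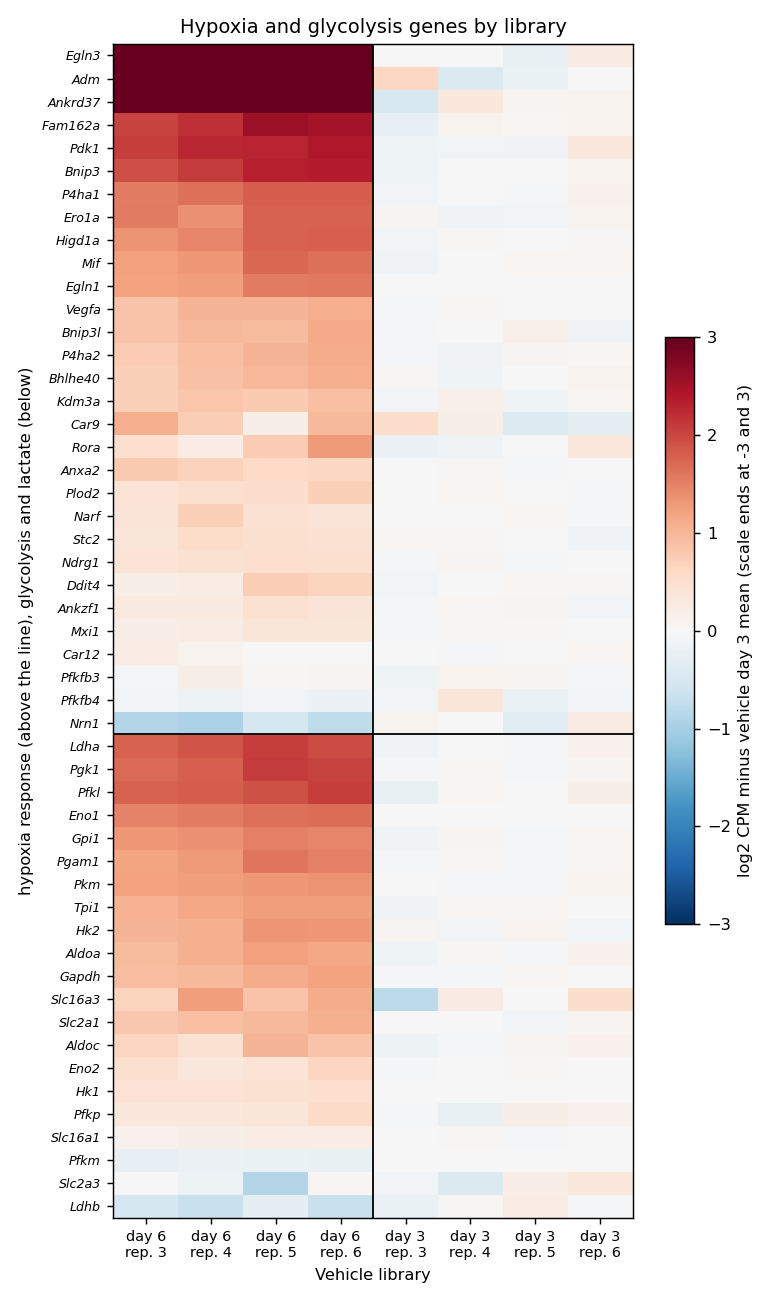
Rows are the measured genes of the hypoxia response and glycolysis lists and columns the 8 vehicle libraries, day 6 on the left; colour is log2 CPM minus the gene's vehicle day 3 mean, with the scale ending at -3 and 3. Nearly all rows are red in all 4 day 6 libraries, deeper in replicates 5 and 6 than in 3 and 4 for genes such as Egln1 and Fam162a, and Nrn1, Pfkm and Ldhb are blue.

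The hypoxia response list also separated replicates within day 6. Its mean level was 6.20 and 6.25 log2 CPM in day 6 replicates 3 and 4 and 6.42 and 6.47 in day 6 replicates 5 and 6, against 5.13, 5.17, 5.11 and 5.19 in day 3 replicates 3, 4, 5 and 6. That spread of 0.27 within day 6 was smaller than the gap of 1.01 between the lowest day 6 and the highest day 3 library.

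Glycolysis turns glucose into pyruvate, and lactate dehydrogenase then turns pyruvate into lactate. Of the 21 measured glycolysis and lactate genes, 18 rose and 2 fell (median 1.05), and every step from glucose uptake to lactate export had a member that rose. The list's summed CPM was 12593 to 14639 in the day 6 libraries and 5565 to 5962 in the day 3 libraries. Entry steps rose, with the glucose transporter gene Slc2a1 at 0.94 ± 0.05 and hexokinase 2, Hk2, at 1.18 ± 0.10. Pfkl, the liver-type phosphofructokinase of the committed step, was 8.54, 8.59, 8.68 and 8.84 log2 CPM at day 6, against 6.54, 6.83, 6.77 and 6.94 at day 3 (1.89 ± 0.10, adjusted p = 1.70e-13).

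Several genes of the later steps rose by more than 2-fold. Pgk1, phosphoglycerate kinase, was 9.94, 10.03, 10.31 and 10.26 log2 CPM at day 6, against 8.17, 8.26, 8.18 and 8.3 at day 3 (1.91 ± 0.09, adjusted p = 1.77e-14). Pkm, pyruvate kinase, was 10.9, 10.95, 10.99 and 11.02 log2 CPM at day 6, against 9.7, 9.62, 9.63 and 9.8 at day 3 (1.28 ± 0.05, adjusted p = 6.34e-15). Ldha, the lactate dehydrogenase chain that favours lactate formation, was 9.66, 9.77, 9.96 and 9.85 log2 CPM at day 6, against 7.78, 7.91, 7.87 and 8.01 at day 3 (1.92 ± 0.08, adjusted p = 6.34e-15). For these 3 genes the lowest day 6 library was above the highest day 3 library. Gapdh, often used as a reference transcript, rose by 1.05 ± 0.07 (adjusted p = 4.54e-11), and Eno1, enolase, by 1.59 ± 0.07. Processed pseudogenes resemble several of these genes, so their reads may not be fully separated.

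Isoforms within the pathway went different ways. Ldhb, the lactate dehydrogenase chain of oxidative tissues, fell at 4.14, 4.03, 4.4 and 4.02 log2 CPM at day 6, against 4.49, 4.71, 4.9 and 4.63 at day 3 (-0.54 ± 0.12, adjusted p = 0.00141). Pfkm, the muscle-type phosphofructokinase, was 7.27, 7.33, 7.31 and 7.29 log2 CPM at day 6, against 7.49, 7.52, 7.5 and 7.52 at day 3 and fell by less (-0.21 ± 0.05, adjusted p = 0.00487), while Pfkl rose and Pfkp, the platelet type, rose by 0.39 ± 0.10. Slc2a3, a second glucose transporter, was not called (-0.25 ± 0.35). Ak4, a mitochondrial adenylate kinase known as a hypoxia target, had the largest rise within the limits for named genes (a mean of at least 1 log2 CPM and no overlap between days), at 3.32, 3.87, 3.7 and 3.98 log2 CPM at day 6, against -3.31, -1.05, -0.73 and -0.19 at day 3 (5.04 ± 0.61, adjusted p = 6.77e-07). Day 3 replicate 3 was the lowest of its day 3 libraries, and on a log2(CPM + 5) scale the Ak4 difference was 1.73 and that of Ankrd37 2.26.

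Mitochondrial energy genes moved by little and mostly downward. Of 59 nuclear-encoded genes of oxidative phosphorylation, the respiratory chain and ATP synthase, 11 were lower and none higher in limma, with a median of -0.14. Over all genes 11.2% were lower and 12.8% higher. At an unadjusted p under 0.05, 19 of the 59 were lower and none higher. Sdhc, a membrane anchor of complex II, was 6.17, 6.16, 6.23 and 6.15 log2 CPM at day 6, against 6.43, 6.49, 6.6 and 6.43 at day 3 (-0.31 ± 0.07, adjusted p = 0.000989). Uqcrh, of complex III, was 6.33, 6.38, 6.66 and 6.55 log2 CPM at day 6, against 6.96, 6.93, 7.09 and 6.97 at day 3 (-0.51 ± 0.12, adjusted p = 0.00255), and for both all day 6 libraries lay below all day 3 libraries. This count depended on the fit: it was 26 with only the groups compared, 33 with library weights and 35 with the replicate block in the groups compared. It was 5, 5 and 7 without day 6 replicates 3, 4 and 6, and 6, 4 and 7 without day 3 replicates 4, 5 and 6, which is near or below the share over all genes.

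Of 11 transcripts of the mitochondrial genome, 3 were higher and none lower in limma, also at an unadjusted p under 0.05. The limma shares over all genes were 12.8% higher and 11.2% lower. The complex I subunit gene mt-Nd2 was at 0.27 ± 0.06, mt-Cytb at 0.26 ± 0.06 and mt-Nd4 at 0.18 ± 0.07. Together these transcripts held 5.64 ± 0.19% of CPM at day 6 and 5.31 ± 0.11% at day 3 (SD, n = 4), a difference of 0.326 percentage points that the exact two-sided permutation test did not call (p = 0.0571, where 0.0286 is the smallest p that 4 libraries against 4 allow). The test was past its threshold without day 6 replicate 6, with a difference of 0.406 (exact p = 0.0286).

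Mitochondrial fatty acid oxidation, which feeds electrons from fat to the respiratory chain, had 12 of 21 genes lower and 1 higher, with a median of -0.27. Etfdh, which passes those electrons to ubiquinone, was 6.35, 6.39, 6.37 and 6.49 log2 CPM at day 6, against 6.71, 6.71, 6.72 and 6.67 at day 3 (-0.30 ± 0.04, adjusted p = 2.76e-06). Acads, the short-chain acyl-CoA dehydrogenase, was at -0.40 ± 0.06 and the carnitine carrier gene Slc25a20 at -0.31 ± 0.06, and the groups did not overlap for any of the 3. Acot2, a mitochondrial thioesterase, was the 1 member higher (0.27 ± 0.08, adjusted p = 0.0136), a call lost without day 6 replicate 5 (0.20) or 6 (0.23), with only the groups compared, and with the replicate block in those groups (adjusted p = 0.0613). Of 19 tricarboxylic acid cycle genes, 2 were lower, a share near the 11.2% of all genes, and none was higher. Sdha, of complex II, was 1 of these 2, at -0.16 ± 0.06.

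Lysosomes degrade cargo delivered by endocytosis and autophagy. Of 33 lysosome and autophagy genes, 19 were lower and none higher, with a median of -0.16, and at an unadjusted p under 0.05 21 were lower and none higher. Lamp2, a lysosomal membrane protein, was 9.27, 9.31, 9.29 and 9.25 log2 CPM at day 6, against 9.63, 9.61, 9.58 and 9.61 at day 3 (-0.33 ± 0.04, adjusted p = 4.39e-07). Atp6v1b2, a subunit of the acidifying proton pump, was 7.9, 7.88, 7.92 and 7.92 log2 CPM at day 6, against 8.22, 8.2, 8.18 and 8.15 at day 3 (-0.28 ± 0.04). Man2b1, lysosomal alpha-mannosidase, was at -0.34 ± 0.05. Each difference was small but exceeded the spread within days, as the groups did not overlap. The list's summed CPM was 12861 to 13026 in the day 6 libraries, below the 14104 to 14475 of the day 3 libraries.

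**Figure D3:**
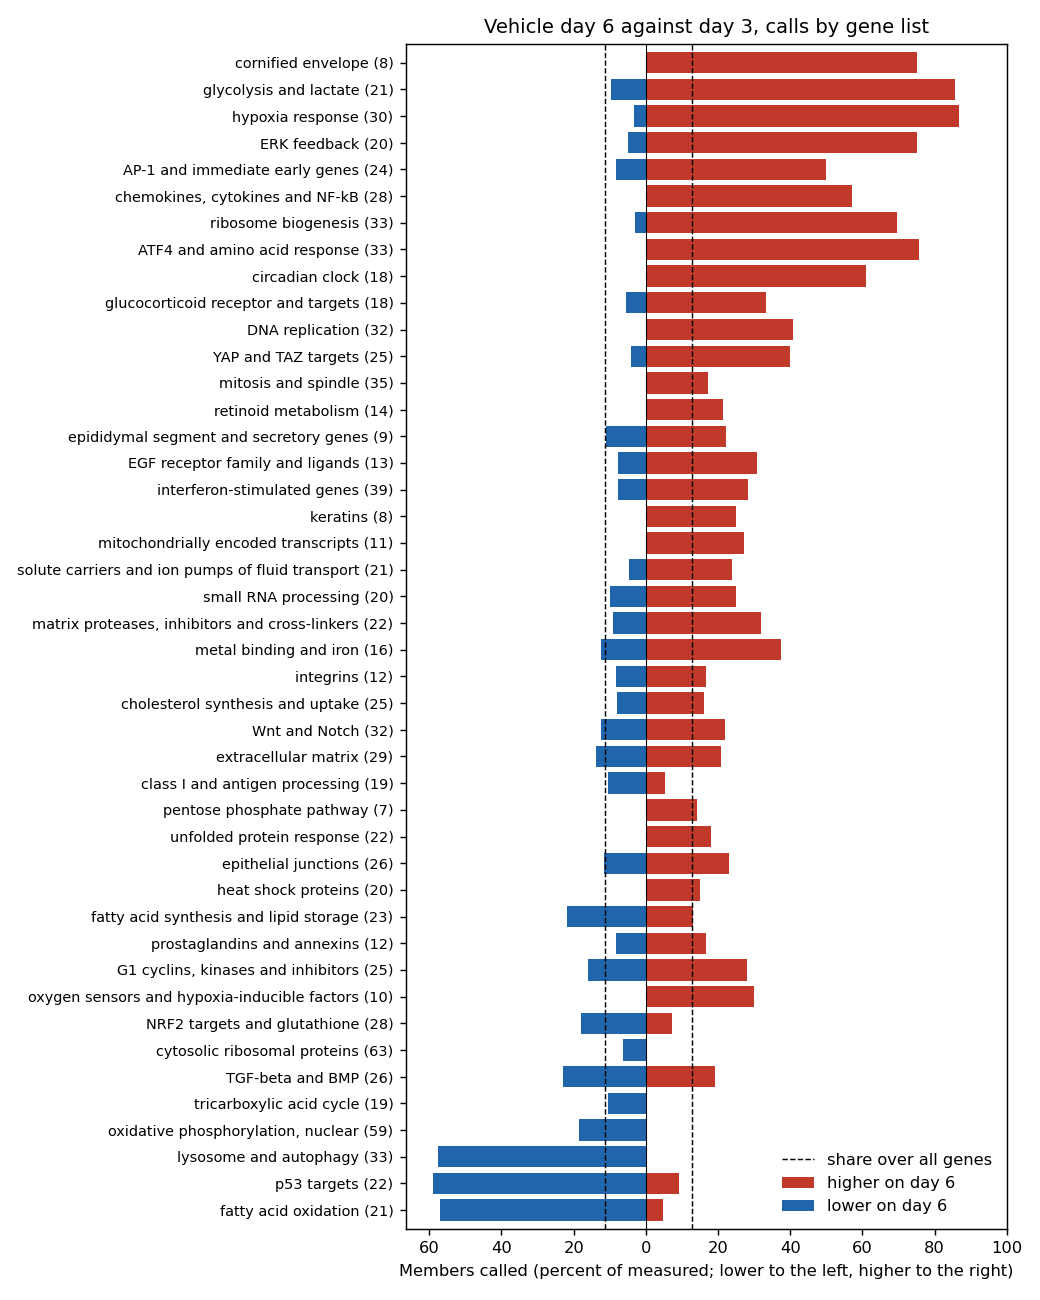
Bars give, for each gene list with at least 5 measured members, the percent called higher (red, to the right) and lower (blue, to the left) in vehicle day 6 against vehicle day 3, with the number measured in brackets; dashed lines mark the shares over all genes, 12.8% higher and 11.2% lower, and lists run from the highest median at the top to the lowest at the bottom. Hypoxia response, glycolysis, cornified envelope, ERK feedback and ATF4 genes extend furthest to the right and lysosome, p53 target and fatty acid oxidation genes furthest to the left.

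More DNA replication genes were higher than lower at day 6, and more p53 target genes lower than higher. Of 32 DNA replication genes, 13 were higher and none lower in limma (19 and none at an unadjusted p under 0.05), with a median of 0.19. Thymidine kinase, Tk1, was 6.18, 6.18, 6.33 and 6.23 log2 CPM at day 6, against 5.59, 5.71, 5.6 and 5.64 at day 3 (0.60 ± 0.06, adjusted p = 4.07e-08). Pcna, the sliding clamp of DNA polymerases, was at 0.33 ± 0.05 and Mcm5, of the replicative helicase, at 0.31 ± 0.05. Of 35 mitosis and spindle genes, 6 were higher and none lower in limma (a share near the 12.8% of all genes, and 13 and none at an unadjusted p under 0.05), with a median of 0.14. Mki67, the proliferation marker, was 8.27, 8.2, 8.08 and 8.18 log2 CPM at day 6, against 8.06, 7.88, 7.84 and 7.88 at day 3 (0.27 ± 0.07, adjusted p = 0.00753), and Anln and Prc1, both of cytokinesis, were at 0.31 ± 0.07 and 0.29 ± 0.07. The mitosis count was 12 with only the groups compared, with or without the replicate block, and 14 with library weights.

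Cyclin D1, Ccnd1, which drives cells out of G1 and is a target of ERK signalling, was 5.66, 5.35, 5.07 and 5.24 log2 CPM at day 6, against 3.84, 4.0, 3.62 and 3.82 at day 3. The day 6 libraries were all above the day 3 libraries (1.51 ± 0.14, adjusted p = 1.31e-08). Cdk2, a kinase of S phase entry, was at 0.30 ± 0.04, and the inhibitor gene Cdkn1b (p27) fell, at -0.36 ± 0.07 (adjusted p = 0.000246). Among 25 G1 cyclins, kinases and inhibitors, 7 rose and 4 fell (8 and 7 at an unadjusted p under 0.05), with a median of -0.06. The limma shares over all genes were 12.8% higher and 11.2% lower.

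Among 22 targets of p53, the transcription factor of the DNA damage response, 13 were lower and 2 higher, with a median of -0.26. Ccng1, cyclin G1, was 6.67, 6.69, 6.68 and 6.67 log2 CPM at day 6, against 7.41, 7.39, 7.41 and 7.34 at day 3, with a spread within each day far smaller than its difference (-0.71 ± 0.04, adjusted p = 5.30e-12). Pmaip1, the pro-apoptotic Noxa gene, was 4.59, 4.55, 4.5 and 4.56 log2 CPM at day 6, against 5.14, 5.13, 5.13 and 5.13 at day 3 (-0.59 ± 0.06, adjusted p = 2.33e-08). Trp53inp1 was 6.57, 6.5, 6.29 and 6.44 log2 CPM at day 6, against 7.42, 7.43, 7.4 and 7.28 at day 3 (-0.93 ± 0.12, adjusted p = 1.50e-06). Cdkn1a (p21) fell by less (-0.28 ± 0.07), and Mdm2, the ubiquitin ligase of p53, stood at -0.25 ± 0.09 (adjusted p = 0.049) with overlapping groups. The 2 members that rose were Plk2, a polo-like kinase gene that growth stimuli also induce (0.48 ± 0.10), and Sesn2, a stress-induced regulator of mTORC1 shared with the ATF4 list (0.18 ± 0.06, adjusted p = 0.0322). The Sesn2 call ended without day 6 replicate 5 (0.14) or 6 (0.18) or day 3 replicate 3 (0.14) or 4 (0.18).

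The ERK kinases, which act downstream of growth factors, induce their own brakes, the Sprouty, Spred and Dusp genes. Of 20 genes in a list of these brakes and of other genes that ERK signalling switches on, such as Etv4, Etv5 and Ccnd1, 15 rose and 1 fell (median 0.66). Spry1 was 6.54, 6.53, 6.69 and 6.72 log2 CPM at day 6, against 5.92, 5.81, 5.85 and 6.13 at day 3 (0.69 ± 0.06, adjusted p = 7.93e-09). Dusp6, a phosphatase specific for ERK, was 4.42, 4.27, 4.63 and 4.25 log2 CPM at day 6, against 3.28, 3.03, 2.82 and 3.43 at day 3 (1.25 ± 0.14, adjusted p = 1.57e-07). The ETS factor gene Etv4 was 3.84, 3.61, 3.9 and 3.94 log2 CPM at day 6, against 2.06, 2.17, 2.4 and 2.06 at day 3 (1.65 ± 0.22, adjusted p = 2.73e-06), and the groups did not overlap for these 3. Dusp14 was the 1 member lower (-0.26 ± 0.07).

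Of 24 AP-1 and immediate early genes, 12 rose and 2 fell (median 0.40). Fosl1 (Fra-1), a late AP-1 subunit sustained by ERK, was 4.99, 4.84, 5.19 and 5.15 log2 CPM at day 6, against 3.7, 3.54, 3.61 and 3.66 at day 3 (1.42 ± 0.12, adjusted p = 1.12e-09). Klf4, a Kruppel-like factor of epithelial differentiation, rose by 1.0 ± 0.08 and Maff, a small Maf factor, by 1.07 ± 0.09. Zfp36, which destabilises inflammatory mRNAs, and Btg2, an antiproliferative gene that p53 also induces, were lower (-0.46 ± 0.11 and -0.23 ± 0.07). The prototypic members Fos and Jun were not called, at 0.25 ± 0.15 (adjusted p = 0.235) and 0.19 ± 0.10 (adjusted p = 0.186). Among 13 EGF receptor family genes, the ligand genes Nrg1 (1.1 ± 0.08) and Hbegf (0.58 ± 0.06) were higher and the ligand gene Btc (-0.54 ± 0.12) lower.

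Ribosome biogenesis genes, which make and process ribosomal RNA, had 23 of 33 higher and 1 lower, with a median of 0.32. Myc, which drives this programme, was 7.27, 7.14, 6.91 and 7.17 log2 CPM at day 6, against 6.03, 6.21, 5.91 and 6.1 at day 3 (1.06 ± 0.10, adjusted p = 6.23e-09). Gnl3, nucleostemin, was 6.26, 6.26, 6.3 and 6.21 log2 CPM at day 6, against 5.63, 5.71, 5.68 and 5.6 at day 3 (0.60 ± 0.05, adjusted p = 7.16e-09), and Rrp12, of ribosomal subunit maturation, rose by 0.51 ± 0.05. The polymerase I factor gene Rrn3 was the 1 member lower (-0.13 ± 0.03). The cytosolic ribosomal protein genes did not share the rise: of 63, none was higher and 4 were lower in limma (none and 8 at an unadjusted p under 0.05), with a median of -0.08. Over all genes 12.8% were higher and 11.2% lower.

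The transcription factor ATF4 induces amino acid synthesis and transport genes when translation initiation is restrained. Of 33 genes of that programme, 25 were higher and none lower in limma (27 and 1 at an unadjusted p under 0.05), with a median of 0.31. However, 1 was lower without day 3 replicate 5, with library weights and with quantile normalization. Trib3, a pseudokinase target of ATF4, was 5.71, 5.7, 5.95 and 5.84 log2 CPM at day 6, against 4.68, 4.61, 4.65 and 4.82 at day 3 (1.11 ± 0.07, adjusted p = 5.25e-12). Atf4 itself was 8.85, 8.84, 9.07 and 8.99 log2 CPM at day 6, against 8.29, 8.24, 8.28 and 8.32 at day 3 (0.66 ± 0.05, adjusted p = 5.85e-10), and the neutral amino acid transporter gene Slc1a4 was 4.88, 4.9, 4.98 and 4.9 log2 CPM at day 6, against 4.35, 4.33, 4.23 and 4.3 at day 3 (0.61 ± 0.06). The groups did not overlap for these 3. Of 22 unfolded protein response genes, 4 were higher and none lower in limma (5 and none at an unadjusted p under 0.05), with a median of 0.01. The shares over all genes were 12.8% higher and 11.2% lower.

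Among measured genes of inflammatory signalling, more were higher than lower at day 6. Of 37 chemokine, cytokine and NF-kB genes listed, 28 were measured, without Il6, Tnf, Il1a and Cxcl2. Of these 28, 16 were higher and none lower in limma (also 16 and none at an unadjusted p under 0.05), with a median of 0.34. Cxcl12, a homeostatic chemokine, was 7.82, 7.85, 7.84 and 7.8 log2 CPM at day 6, against 7.41, 7.36, 7.38 and 7.37 at day 3, a small difference beside an even smaller spread (0.45 ± 0.04, adjusted p = 1.57e-08). Cxcl10, an interferon-induced chemokine, was 5.6, 5.59, 5.57 and 5.58 log2 CPM at day 6, against 4.94, 4.91, 4.87 and 4.9 at day 3 (0.68 ± 0.07, adjusted p = 5.12e-08). Lcn2, a siderophore-binding lipocalin of innate defence, was 2.55, 2.5, 2.84 and 2.57 log2 CPM at day 6, against 0.14, 0.76, 1.0 and 0.86 at day 3 (1.92 ± 0.23, adjusted p = 8.77e-07), and 0.75 on a log2(CPM + 5) scale.

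Interferon-stimulated genes were mixed. Of 39, 11 rose and 3 fell (median 0.11), beside 12.8% higher and 11.2% lower over all genes. Oasl2, of the oligoadenylate synthetase family, was 6.14, 6.26, 6.23 and 6.19 log2 CPM at day 6, against 5.25, 5.31, 5.19 and 5.49 at day 3 (0.89 ± 0.09, adjusted p = 4.40e-08). Ifit1, which binds foreign RNA caps, rose by 0.51 ± 0.08 and the antiviral gene Samd9l by 0.47 ± 0.07, whereas Usp18, a brake on interferon receptor signalling, fell (-0.32 ± 0.09, adjusted p = 0.00938) and Ifit2 was at -0.16 ± 0.04. The 11 higher became 7 at an adjusted p under 0.01. Families such as Oasl, Ifit and Gbp hold close paralogs whose reads may not be fully separated.

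Some genes of barrier differentiation and cell contact changed as well. Cornified envelope genes are best known from the skin barrier and are also induced in stressed simple epithelia. Of 31 listed only 8 were measured, without Ivl, Flg and Tgm1. Of these 8, 6 were higher, beside 12.8% of all genes. Sprr1a, a small proline-rich precursor of the envelope, was 8.32, 8.35, 8.94 and 8.7 log2 CPM at day 6, against 6.04, 5.96, 5.8 and 6.11 at day 3 (2.6 ± 0.18, adjusted p = 3.22e-11). Sprr2g was 7.13, 7.14, 7.63 and 7.44 log2 CPM at day 6, against 5.26, 5.25, 5.08 and 5.23 at day 3 (2.13 ± 0.18, adjusted p = 1.97e-09). Sprr2a2 was -0.64, -0.81, -0.72 and -0.56 log2 CPM at day 6, against -4.15, -2.96, -4.15 and -2.35 at day 3, with 2 day 3 libraries at the lowest value of the table, so its difference depends on the prior count (2.72 ± 0.36, and 0.14 on a log2(CPM + 5) scale). The Sprr2 genes are close copies whose reads may not be fully separated. Sprr2a1, Sprr2a2, Sprr2h and Lor lay below 1 log2 CPM on average, and with a filter at 2 log2 CPM the 2 members called higher were Sprr1a and Sprr2g.

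Of 26 epithelial junction genes, 6 rose and 3 fell (median 0.002), beside 12.8% higher and 11.2% lower over all genes. Claudins went both ways, as Cldn1, a sealing claudin, was 4.53, 4.73, 4.72 and 4.58 log2 CPM at day 6, against 3.89, 3.72, 3.63 and 3.9 at day 3 (0.86 ± 0.09, adjusted p = 7.90e-08) and Cldn4, which limits sodium passage, was 4.69, 4.56, 4.6 and 4.69 log2 CPM at day 6, against 5.37, 5.41, 5.45 and 5.47 at day 3 (-0.79 ± 0.08, adjusted p = 4.33e-08). Cdh1 (E-cadherin) rose by 0.83 ± 0.13, while the desmosomal plakophilin gene Pkp2 fell (-0.31 ± 0.05). With only the groups compared, with or without the replicate block, 10 junction genes were higher.

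The matrix cross-linking genes Lox and Loxl2 rose, while the BMP target genes Id1, Id2 and Id3 fell. Lox, lysyl oxidase, was 5.78, 5.82, 6.0 and 5.95 log2 CPM at day 6, against 4.68, 4.67, 4.79 and 4.58 at day 3 (1.21 ± 0.09, adjusted p = 1.33e-10), and Loxl2 rose by 0.65 ± 0.06; both are known targets of hypoxia-inducible factors. Loxl1 and the stromelysin-3 gene Mmp11 were the 2 of 22 matrix protease, inhibitor and cross-linker genes that fell (-0.29 ± 0.09 and -0.45 ± 0.08), beside 7 that rose. Over all genes 11.2% were lower and 12.8% higher. The Loxl1 call ended without day 6 replicate 3 (-0.25) or 4 (-0.19), without day 3 replicate 3 (-0.28), with only the groups compared, and with the replicate block in those groups (adjusted p = 0.0513).

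Among 26 TGF-beta and BMP genes, 5 rose and 6 fell (median -0.09), beside 12.8% higher and 11.2% lower over all genes. Id3, an inhibitor of differentiation induced by BMP, was 6.05, 5.95, 6.3 and 6.24 log2 CPM at day 6, against 6.98, 6.84, 7.12 and 6.96 at day 3 (-0.84 ± 0.08, adjusted p = 1.97e-08). Id2 was 6.89, 6.93, 6.98 and 6.87 log2 CPM at day 6, against 7.52, 7.35, 7.46 and 7.47 at day 3 (-0.53 ± 0.06, adjusted p = 1.72e-07) and Id1 fell as well (-0.51 ± 0.11). Bmp4, the ligand gene, rose in the same libraries (0.74 ± 0.09, adjusted p = 8.49e-07, and 0.47 on a log2(CPM + 5) scale). Of 25 YAP and TAZ target genes, 10 were higher and 1 lower, with Ccn2, the connective tissue growth factor, at 7.56, 7.6, 7.82 and 7.8 log2 CPM at day 6, against 6.33, 6.34, 6.29 and 6.64 at day 3 (1.3 ± 0.09, adjusted p = 4.42e-11).

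The circadian clock runs on activators (Arntl, Clock) and on repressors (Per, Cry, Bhlhe40, Ciart) that they induce. Of 18 clock genes, 11 were higher and none was lower in limma (12 and none at an unadjusted p under 0.05), with a median of 0.25. Ciart, a repressor of the clock, was 4.19, 4.18, 4.25 and 4.14 log2 CPM at day 6, against 3.2, 3.31, 2.92 and 3.17 at day 3 (1.04 ± 0.11, adjusted p = 8.50e-08). Per2 was 5.59, 5.59, 5.56 and 5.54 log2 CPM at day 6, against 4.89, 4.87, 4.75 and 5.05 at day 3 (0.68 ± 0.08, adjusted p = 5.92e-07) and Bhlhe40, also a hypoxia target, 7.14, 7.3, 7.41 and 7.52 log2 CPM at day 6, against 6.46, 6.29, 6.4 and 6.52 at day 3 (0.92 ± 0.08, adjusted p = 7.38e-09). The groups did not overlap for these 3. Both an activator, Arntl (0.24 ± 0.05), and the repressors Ciart, Per2 and Bhlhe40 rose, while the clock genes Dbp and Nr1d2 were not called (-0.03 and 0).

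Of 25 genes of cholesterol synthesis and uptake, 4 rose and 2 fell in vehicle cultures (median 0.06), which together is the same share as the 24% called over all genes. Sqle, squalene epoxidase, was 7.74, 7.63, 7.7 and 7.65 log2 CPM at day 6, against 7.35, 7.35, 7.35 and 7.24 at day 3 (0.36 ± 0.05, adjusted p = 3.87e-06), and Stard4, a sterol carrier, rose by 0.37 ± 0.06. Dhcr7, of the last synthesis step, fell (-0.34 ± 0.08, adjusted p = 0.00265). The fall of Sc5d, a sterol desaturase (-0.16 ± 0.05, adjusted p = 0.0256), was not called without day 6 replicate 4 (-0.15) or 5 (-0.13) or day 3 replicate 3 (-0.14) or 4 (-0.16).

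Within the same limits of level and overlap, the largest falls were smaller than the largest rises. Adgrg2, an adhesion receptor of the efferent ducts and epididymis needed there for fluid handling, was 0.51, 0.70, 0.63 and 0.52 log2 CPM at day 6, against 1.17, 0.98, 2.8 and 2.66 at day 3 (-1.31 ± 0.35, adjusted p = 0.00747). Day 3 replicates 5 and 6 were well above replicates 3 and 4, while the 4 day 6 libraries lay close together. Cd1d1, which presents lipid antigens to T cells, was 0.66, 1.05, 1.2 and 0.61 log2 CPM at day 6, against 2.42, 2.16, 2.41 and 1.5 at day 3 (-1.25 ± 0.24, adjusted p = 0.000324). Slc37a2, a sugar phosphate exchanger, was at -1.12 ± 0.19, Svip, an inhibitor of endoplasmic reticulum degradation, at -1.07 ± 0.18, and Raet1e, a stress ligand for natural killer cells, at -1.04 ± 0.18. The calcium-binding gene Cib3 was at -0.99 ± 0.21, the glutamate receptor subunit gene Gria3 at -0.97 ± 0.14, the tetraspanin gene Tspan13 at -0.93 ± 0.25 and the death receptor gene Fas at -0.92 ± 0.19.

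On a log2(CPM + 5) scale these falls from Adgrg2 to Fas were between -0.48 and -0.29. Dpysl3, a cytoskeletal collapsin response mediator, lay higher, at 4.12, 4.28, 4.09 and 4.13 log2 CPM at day 6, against 5.05, 5.02, 5.41 and 4.99 at day 3 (-0.96 ± 0.11, adjusted p = 1.88e-07). Pitpnc1, a phosphatidylinositol transfer gene, was called at -1.02 ± 0.36 (adjusted p = 0.0403), but its call ended with the replicate block (adjusted p = 0.0559) and without any 1 of day 6 replicates 3, 4, 5 and 6 or day 3 replicates 3, 4 and 6 (adjusted p up to 0.106). Among the remaining large rises was Ppp1r1b, the DARPP-32 phosphatase inhibitor gene, at 2.56, 2.76, 2.59 and 2.89 log2 CPM at day 6, against 0.72, 0.73, 0.76 and 0.98 at day 3 (1.9 ± 0.20, and 0.77 on a log2(CPM + 5) scale).

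To see whether treated cultures changed alike over the same days, the day 6 minus day 3 change was also taken in corticosterone cultures, which share no library with the vehicle ones. The labels count those days as recovery, so time in culture and the end of hormone treatment cannot be told apart in that change. There 2001 genes were higher (15.2%) and 1974 lower (15%), 3975 in all (30.3%). Of the higher genes 802 were higher in both, 40.1% of those in corticosterone cultures and 47.6% of those in vehicle cultures, and of the lower genes 710 were lower in both (36% and 48.5%). The difference between the changes, corticosterone minus vehicle, was called for 1196 genes (9.11%), 553 upward (4.21%) and 643 downward (4.9%). Corticosterone day 3 replicate 4 stood apart from its group, with a mean of 7.72 log2 CPM over the list of oxidative phosphorylation, nuclear, against 7.13 to 7.21 in the other 3 libraries, and without it 1449 differences were called. The count was 766 with only the 4 groups compared and 565 with the replicate block in those groups.

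Hypoxia response genes differed between the cultures. In corticosterone cultures 7 rose and 7 fell (median 0.01), and in vehicle cultures 26 rose and 1 fell (median 0.87). The difference was called for 22 of the 30 genes, downward in 21. Egln3 had a change of -0.14 ± 0.15 in corticosterone cultures and 4.01 ± 0.15 in vehicle cultures, a difference of -4.15 ± 0.21 (adjusted p = 5.80e-13). Bnip3 changed by -0.60 ± 0.13 and 2.18 ± 0.13 in the same 2 kinds of culture (-2.79 ± 0.18, adjusted p = 5.34e-11), and Pdk1 by -0.33 ± 0.12 and 2.26 ± 0.12 (-2.59 ± 0.17, adjusted p = 5.34e-11). Adm also differed (-4.78 ± 0.49), but its level in corticosterone cultures was already 3.32 ± 0.27 log2 CPM at day 3 (SD, n = 4), above the 2.94 ± 0.42 of vehicle cultures at day 6.

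Glycolysis genes were higher for 4 of 21 in corticosterone cultures (median 0.11), against 18 in vehicle cultures, and the difference was called downward for 14. Clock genes were 4 higher and 5 lower there, against 11 and 0 in vehicle cultures, with 10 differences downward and 2 upward; Ciart had a difference of -1.32 ± 0.16 (adjusted p = 1.74e-06). Cholesterol genes went the other way, with 22 of 25 higher in corticosterone cultures (median 0.79), against 4 in vehicle cultures, and 22 differences upward. Insig1, a feedback inhibitor of sterol synthesis, changed by 1.41 ± 0.06 in corticosterone cultures and 0.12 ± 0.06 in vehicle cultures (1.29 ± 0.08, adjusted p = 5.34e-11), and the sterol demethylase gene Cyp51 by 1.08 ± 0.05 and -0.05 ± 0.05 (1.13 ± 0.07, adjusted p = 5.34e-11).

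ATF4 genes were higher for 25 of 33 in each, with medians of 0.34 with corticosterone and 0.31 in vehicle cultures, and 5 differences were called, 2 upward and 3 downward, beside 9.11% of all genes. Ribosome biogenesis genes were higher for 29 of 33 with corticosterone and 23 in vehicle cultures, with medians of 0.39 and 0.32 and 3 differences, all upward, a share near that over all genes. Myc changed by 1.04 ± 0.10 with corticosterone and 1.06 ± 0.10 in vehicle cultures, a difference of -0.02 ± 0.13. Ccnd1 changed by 2.12 ± 0.14 and 1.51 ± 0.14 in the same order, a difference of 0.61 ± 0.20 (adjusted p = 0.0575).

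**Figure D4:**
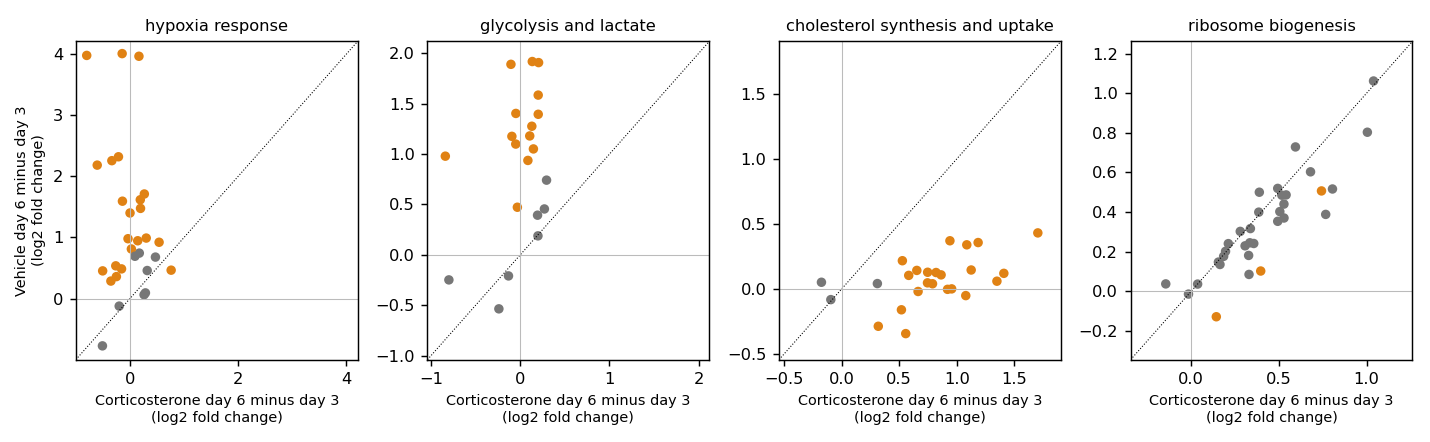
Each point is a gene of the list named above its panel, with its day 6 minus day 3 log2 fold change in corticosterone cultures on the x axis and in vehicle cultures on the y axis; orange points have a called difference between the 2 changes (limma, adjusted p under 0.05), grey points do not, and the dotted line marks equal changes. Hypoxia and glycolysis genes rise along the vehicle axis near 0 on the corticosterone axis, cholesterol genes do the reverse, and ribosome biogenesis genes lie along the line.

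The day 3 and day 6 libraries also belong to a vehicle course over days 0, 3, 6 and 9, in which neighbouring comparisons share libraries, so levels are given with no overlap between them. Egln3 averaged 1.41, 1.89, 5.9 and 7.32 log2 CPM on days 0, 3, 6 and 9, and Pdk1 5.0, 5.15, 7.4 and 8.35. Both were higher at day 6 than on the earlier days, and higher still at day 9. Ldha averaged 9.12, 7.89, 9.81 and 10.62 on the same days and Gapdh 11.24, 10.14, 11.19 and 11.91, so these transcripts were at their lowest at day 3, and the day 6 level of Gapdh was close to that of day 0. Myc averaged 7.25, 6.06, 7.12 and 7.19, with day 6 close to day 0, and Ccnd1 7.8, 3.82, 5.33 and 5.76, with day 6 under day 0. Days 6 and 0 were not compared by a test. Ccng1 averaged 6.88, 7.39, 6.68 and 6.6 and Trp53inp1 5.26, 7.38, 6.45 and 6.26, highest at day 3. Sprr1a averaged 10.1, 5.98, 8.58 and 9.71. Of all genes, 9083 (69.2%) were called between days 3 and 0 and 1029 (7.84%) between days 9 and 6, of which 616 were higher (4.69%) and 413 lower (3.15%) at day 9.

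**Figure D5:**
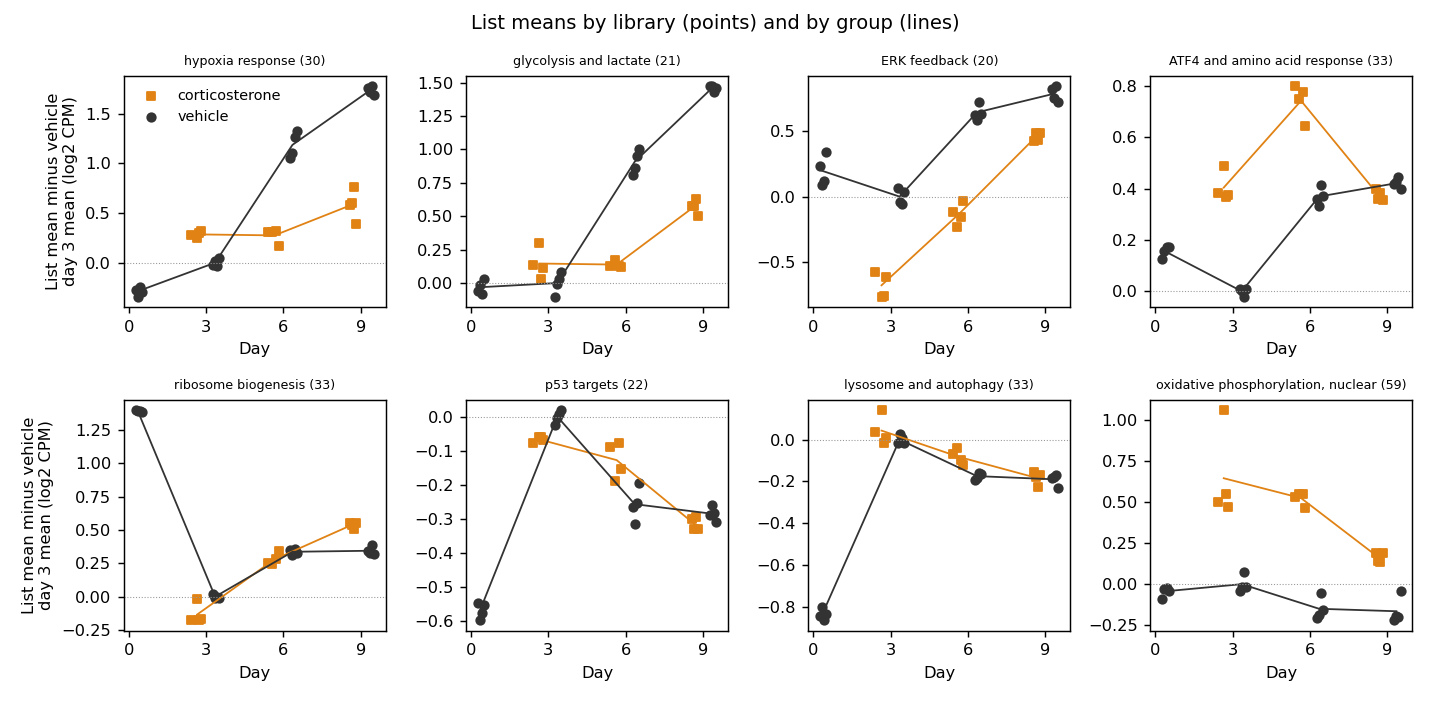
Points are single libraries and lines group means of the list mean, in log2 CPM minus the vehicle day 3 mean, over days 0 to 9; corticosterone cultures are orange squares and vehicle cultures black circles, drawn slightly apart, with the number of genes in brackets. Vehicle hypoxia response libraries stand at 1.05 to 1.32 at day 6, above all day 3 libraries, while ribosome biogenesis is highest at day 0 and lysosome and p53 target lists peak at day 3.

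The labelled cell type was checked against markers. Of 10 epithelial markers 7 were measured, with a summed CPM of 164 to 186 at day 6 and 154 to 170 at day 3. Pax8 and Krt18 held most of that sum, so the other measured members were low. Krt18, a simple epithelial keratin, was 4.49, 4.47, 4.45 and 4.37 log2 CPM at day 6, against 4.44, 4.49, 4.42 and 4.34 at day 3 and not called, Pax8, a transcription factor of genital duct epithelia, averaged 7.14 ± 0.11 and 7.02 ± 0.09 at days 6 and 3 (SD, n = 4), and Epcam lay below 1 log2 CPM in every library. None of 10 epididymal principal cell markers or 7 clear cell markers, such as Lcn5 and Foxi1, was among the genes analysed, so these specialised features could not be checked. Whether they were absent through a low level or another symbol was not tested. Vim, the mesenchymal filament gene, rose by 0.49 ± 0.08.

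Markers of other cells were few, and their calls stand beside 12.8% higher and 11.2% lower over all genes. Of 10 fibroblast markers 6 were measured and 1 rose, Dcn, the proteoglycan decorin (0.69 ± 0.10). The other 5 were not called, the lowest of them at -1.06. The fibroblast list had a summed CPM of 88.2 to 92.5 at day 6 and 75.3 to 80.4 at day 3. Of 10 macrophage and leukocyte markers 3 were measured and 1 rose, the lysosomal protein gene Cd68 (0.87 ± 0.10), with sums of 92.6 to 104 at day 6 and 68.6 to 74.4 at day 3, whereas Csf1r stayed below 0 log2 CPM in every library. Of 8 basal cell markers 3 were measured and 2 rose, Cldn1 and Apoe, with sums of 42.6 to 54.1 at day 6 and 31 to 39.3 at day 3. None of the 3 smooth muscle, 3 endothelial or 1 spermatogenic markers measured was called, and each of these lists summed to under 4 CPM in every library of both days. Defining markers such as Ptprc, Adgre1, Krt5, Krt14 and Trp63 were not analysed here. The part of these markers in the differences above was not tested, and in bulk RNA fewer cells of a type and less RNA per cell cannot be told apart.

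Summed CPM, 949631 to 1059931 over the 28 libraries, is set by the authors' scaling and is not a depth, which is unknown from these files. Log2 profiles of 2 vehicle libraries differed by a root mean square of 0.293 to 0.413 within a day (12 pairs) and 0.443 to 0.499 between the days (16 pairs), so every pair of vehicle libraries from different days was further apart than any pair of the same day.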

How the data were processed

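RNA was measured by stranded mRNA sequencing of DC2 cells, from 500 ng of RNA per library per the labels' protocols. The authors deposited 1 table of log2 CPM for 13129 entries in 28 libraries (7 groups of 4). The submitters' processing notes name kallisto, edgeR 3.40.1, limma 3.54.0 and mm10, without roles; the scaling, prior count and annotation release are not given in the sources used here. The 1 unnamed entry, 0.0267% to 0.0698% of CPM, was left out. A filter of log2 CPM above 0 in at least 4 libraries was applied and removed 0 genes.

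Groups follow the labels. A mean per group was fitted over all 28 libraries with limma 3.58.1 (R 4.3.3) with an intensity trend, 21 residual degrees of freedom and Benjamini-Hochberg adjustment over 13128 genes. On simulated data the fit was tested before use. Same-numbered day 6 and day 3 libraries deviated together (correlations of 0.11, 0.12, 0.17 and 0.13 for replicates 3, 4, 5 and 6). The fit did not pair libraries, and the replicate block was run only as an alternative. That block rests on the data, not on a statement in the labels. The correlation is not specific to the numbers: day 6 replicate 3 correlated at 0.16 with day 3 replicate 4, above its own number, and day 6 replicate 4 at 0.10 with day 3 replicate 3. Alternatives were other scalings, pseudocounts, filters, thresholds, library weights, only the groups compared, the replicate block and leaving out each library.

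Genes were named by rule: the 12 largest rises and 12 largest falls (called, mean of at least 1 log2 CPM, days not overlapping, 1 predicted gene model passed over), up to 3 list members with the smallest p and up to 2 called the other way, all oxygen sensors, the 5 differences with the smallest p and the 5 most abundant nuclear genes. Promoters were shown for the 4 called hypoxia members with the largest rise. List members outside the rule, such as Fos, Jun, Arntl, Dbp, Hk2 and Vim, were named after their values were seen. Members and the 45 pathway and 9 marker lists were chosen with earlier results of these data known, and which lists to describe was decided after their values were seen. A histone list, of which 3 of 14 symbols matched, was not used. Sequences and motif shares come from RefSeq on GRCm38.p6. Some genes that the rule names are not reported here.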

Additional observations from a re-analysis of the deposited data

Results flagged for a closer look

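Of 212 groups of 4 libraries checked (106 genes on each of 2 days), 16 had 1 library far from the other 3, with a gap to its nearest neighbour above Dixon's critical value for its share of the group's range; chance alone flags about 1 in 20 groups. Values are log2 CPM. At day 6 these were Acads in replicate 3 (6.4), Bmp4 in replicate 4 (3.35), Pcna in replicate 4 (8.70) and Svip in replicate 3 (0.57). At day 3 they were Dpysl3 in replicate 5 (5.41), Egln2 in replicate 5 (5.51), Etfdh in replicate 6 (6.67), Fam162a in replicate 3 (4.07), Mcm5 in replicate 3 (7.02), Mki67 in replicate 3 (8.06), Pdk1 in replicate 6 (5.46), Pitpnc1 in replicate 5 (0.91), Ppp1r1b in replicate 6 (0.98), Sprr2g in replicate 5 (5.08), Sqle in replicate 6 (7.24) and Usp18 in replicate 3 (4.07).

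The change between days 3 and 6 differed between corticosterone and vehicle cultures for 53 of the named genes, by limma's test of the difference itself at an adjusted p under 0.05 over all genes. Values are the corticosterone change minus the vehicle change on the log2 scale, with 4 libraries in each of the 4 groups. The difference was negative for 30 genes, many of them hypoxia response, glycolysis and cornified envelope genes: Ak4 (-5.61), Egln3 (-4.15), Ankrd37 (-3.80), Bnip3 (-2.79), Pdk1 (-2.59), Fam162a (-2.53), Ldha (-1.78), Pgk1 (-1.70), Lcn2 (-1.66), Sprr2a2 (-1.61), P4ha1 (-1.44), Egln1 (-1.40), Sprr1a (-1.37), Ciart (-1.32), Sprr2g (-1.21), Pkm (-1.15), Oasl2 (-0.82), Cldn1 (-0.77), Loxl2 (-0.72), Maff (-0.70), Lox (-0.61), Per2 (-0.60), Fosl1 (-0.55), Ifit1 (-0.47), Cdk2 (-0.41), Bhlhe40 (-0.38), Tk1 (-0.35), Trib3 (-0.33), Pcna (-0.26) and Atf4 (-0.24). It was positive for 23 genes, among them the sterol genes and several lysosomal genes: Insig1 (1.29), Dpysl3 (1.22), Cyp51 (1.13), Dhcr7 (0.90), Svip (0.86), Sqle (0.83), Id3 (0.70), Sc5d (0.68), Cldn4 (0.62), Stard4 (0.57), Id2 (0.42), Man2b1 (0.41), Spry1 (0.41), Ivns1abp (0.40), Psap (0.35), Ifit2 (0.30), Etfdh (0.28), Rrn3 (0.27), Lamp2 (0.27), Atp6v1b2 (0.26), Rrp12 (0.24), Ccng1 (0.22) and Cxcl12 (0.21).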

How the results depend on the processing

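Of 1685 genes higher at day 6, 1040 remained at an adjusted p under 0.01 and 140 with at least a 2-fold change. Of 1464 lower genes, 833 and 21 remained. Weights per library gave 2384 higher and 2360 lower genes, and quantile normalization 1553 higher and 1727 lower, so the excess of higher genes turned there. The 1196 genes whose change differed between corticosterone and vehicle cultures became 766 with only the groups compared, 565 with the replicate block in those groups, 591 at an adjusted p under 0.01 and 149 with at least a 2-fold change. Leaving out 1 library gave 1358 to 1488 higher genes, 1168 to 1320 lower genes and 918 to 1449 differing genes. With the replicate block in all libraries 1749 genes were higher, 1512 lower and 1105 differing, and in only the groups compared 2131 were higher and 1986 lower. Beyond the changes with the block given beside Pitpnc1, Acot2, Loxl1, Arnt2 and the list counts, it called Insig1 higher in the groups compared (0.12, adjusted p = 0.0239) and changed no other call of a named gene.

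The mitochondrially encoded share of CPM differed by 0.326 percentage points (exact p = 0.0571). It passed the exact test with quantile normalization (0.0949, exact p = 0.0286), as a share of a fixed nominal total (0.447, exact p = 0.0286) and without day 6 replicate 6, ranged over 0.269 to 0.406 with 1 library left out, and was positive in all 4 same-numbered pairs, where an exact sign permutation gave p = 0.125, the smallest that 4 pairs allow. Eef2, a translation elongation factor and one of the most abundant transcripts, changed sign with quantile normalization, at 0.03 (0.0287) against -0.18 without it, and the cause was not tested. Of 116 gene values followed through up to 29 settings, 106 were called and 96 of these kept their call in every setting. Depth is not given by normalized values, so no counting interval was made, and folds of genes near the lowest value, -4.15 log2 CPM, depend on the prior count.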
